A study of Mus musculus with 6 samples.

Results

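The expression of 10 genes of hepatic insulin signalling and glycogen targeting was examined in liver RNA-Seq of 6 house mice (Mus musculus). The genes were taken by name: the receptor Insr, the adaptors Irs1 and Irs2, the kinase Akt2, its inhibitor Trib3, the transcription factors Foxo1 and Foxo3, and the subunits Ppp1r3b, Ppp1r3c and Ppp1r3g, which bring protein phosphatase 1 to glycogen. They are 10 of the 47232 gene names used in these data, and all 10 were among the 18619 genes with enough signal to be tested. The laboratory group held 3 adult males of the inbred strain C57BL/6, bought from a breeder and sacrificed on arrival. The wild group held 3 outbred adults trapped in New South Wales and then housed for some months at ambient temperature under natural light. Wild mouse 1, a male, and wild mouse 2, a female, came from Murrumbateman, and wild mouse 3, a female, from Yass. No treatment or engineered allele is named for any mouse. The groups were also collected and put into storage at different times. The paper gives an age in weeks for the laboratory mice, while the wild mice are described only as adult. Each wild mouse weighed less than each laboratory mouse, and wild mouse 1 weighed the least. Feeding before sacrifice is not described in the sources used here. Origin therefore cannot be told apart from age, body weight, diet, inbreeding, housing history, trapping, date of collection or time in storage. It can be told apart from sex only in part. RNA came from a small piece of frozen liver per mouse, without separation of cells. Fewer cells of a type and less RNA per cell therefore cannot be told apart.

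Insulin binds its receptor on the hepatocyte surface, the receptor phosphorylates the IRS adaptors, and these recruit phosphoinositide 3-kinase, which leads to activation of AKT. In liver, AKT2 is the main AKT isoform of this pathway. AKT keeps FOXO factors out of the nucleus, which lowers transcription of genes for glucose output and also of Irs2 and Insr themselves, and it inhibits glycogen synthase kinase 3. Protein phosphatase 1 then dephosphorylates glycogen synthase and glycogen phosphorylase where glycogen-targeting subunits hold it at the glycogen particle. PPP1R3B (also called G-L) is the abundant targeting subunit of liver, PPP1R3C is also known as protein targeting to glycogen (PTG), and PPP1R3G is known for its response to fasting and feeding. TRIB3 is a pseudokinase that binds AKT and is induced by the stress factor ATF4.

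Expression is given as FPKM (fragments assigned to a gene, corrected for the length of its transcripts and for the size of the library) and as zFPKM, the log2 FPKM of a mouse less the mode of its own distribution and divided by a fitted SD. The scales of the mice were not alike. The mode of log2 FPKM lay between 0.491 and 2.51 and the SD between 2.51 and 3.12, and the summed FPKM was 638996 to 649355 in the laboratory males against 546012 to 569904 in wild mice. The median difference over all genes tested, laboratory minus wild, was 0.00 in zFPKM but -0.47 in log2(FPKM + 0.1). Group differences are therefore given in zFPKM and, beside it, in log2(FPKM + 0.1) shifted so that each mouse has a median of 0, called centred log2 from here on, on which the median gene differed by 0.27. The second scale was chosen after the data were seen. Its shift moves the difference of every gene by the same amount, so genes near an FPKM of 0 can be called higher in laboratory mice. How many reads stand behind a value is unknown.

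All 10 genes lie on GRCm38.p6 autosomes. Insr (chr8:3150922-3279649), Irs2 (chr8:10984681-11008929) and Ppp1r3b (chr8:35375694-35388139) share chromosome 8. Irs1 (chr1:82233105-82291439), Trib3 (chr2:152337425-152344060), Foxo1 (chr3:52268337-52350109), Akt2 (chr7:27591552-27640826), Foxo3 (chr10:42181845-42276695), Ppp1r3g (chr13:35958824-35970388) and Ppp1r3c (chr19:36731731-36736604) are each alone on theirs. In RefSeq the spans of Irs2, Foxo3 and Ppp1r3g each overlap 1 long noncoding RNA gene (9530052E02Rik, Gm38485 and Gm30127), and the spans of the other 7 overlap no other gene. The library kit keeps strand, but whether strand was used in the quantification is not given in the sources used here.

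Promoter windows of 300 bases, from 250 before to 50 after the start, were held in the RefSeq table (GRCm38.p6) for 8 of the 10 genes, all but Insr and Ppp1r3b. Both strands were searched for 5 short motifs. Windows are shown for both adaptors, for Ppp1r3c, whose zFPKM difference was the largest among the 10 genes, and for Trib3, which holds the element of its stress factor. They read 5′ to 3′ in the direction of the gene, all 4 on the minus strand, with motif matches in capitals. The end of the window was found in transcripts of a second annotation (GENCODE) for Irs1, Ppp1r3c and Trib3. It was not found for Irs2 in either direction, so the start and strand of that window rest on RefSeq alone. The Irs1 window is chr1:82291390-82291689, the Irs2 window chr8:11008880-11009179, the Ppp1r3c window chr19:36736555-36736854 and the Trib3 window chr2:152344011-152344310.
Irs1: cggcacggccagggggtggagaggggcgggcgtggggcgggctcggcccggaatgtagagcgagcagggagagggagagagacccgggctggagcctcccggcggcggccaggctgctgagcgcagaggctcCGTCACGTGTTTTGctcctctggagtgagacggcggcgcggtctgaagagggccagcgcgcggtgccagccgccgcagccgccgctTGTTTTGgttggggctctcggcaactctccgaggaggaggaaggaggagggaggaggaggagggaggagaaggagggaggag
Irs2: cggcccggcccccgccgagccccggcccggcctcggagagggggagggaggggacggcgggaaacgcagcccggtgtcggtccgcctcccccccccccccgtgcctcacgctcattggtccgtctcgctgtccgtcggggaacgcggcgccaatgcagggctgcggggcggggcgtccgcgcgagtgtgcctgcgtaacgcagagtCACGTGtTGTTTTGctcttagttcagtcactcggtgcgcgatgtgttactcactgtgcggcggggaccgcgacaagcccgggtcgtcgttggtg
Ppp1r3c: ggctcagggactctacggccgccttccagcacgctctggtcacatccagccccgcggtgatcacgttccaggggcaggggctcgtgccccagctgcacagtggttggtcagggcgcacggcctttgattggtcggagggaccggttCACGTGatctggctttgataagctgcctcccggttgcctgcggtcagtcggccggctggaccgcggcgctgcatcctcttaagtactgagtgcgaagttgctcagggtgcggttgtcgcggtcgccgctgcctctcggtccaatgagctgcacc
Trib3: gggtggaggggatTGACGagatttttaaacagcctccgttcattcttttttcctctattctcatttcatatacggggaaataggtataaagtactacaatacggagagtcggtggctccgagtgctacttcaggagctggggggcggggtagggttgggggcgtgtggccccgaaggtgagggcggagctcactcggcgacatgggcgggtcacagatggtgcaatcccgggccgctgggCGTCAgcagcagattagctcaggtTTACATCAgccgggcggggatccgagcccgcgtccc

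The E-box CACGTG, bound by factors such as USF and CLOCK-BMAL1, occurred in 3 of the 8 genes (Irs1, Irs2 and Ppp1r3c) and in 7.15% of all 32851 windows. The insulin response core TGTTTTG was present in Irs1 and Irs2 and in 6.28% of windows. In the Irs2 window the E-box spans -44 to -39 from the start and TGTTTTG spans -37 to -31, so that 1 base parts them. In Irs1 the E-box (-115 to -110) and the first TGTTTTG (-111 to -105) overlap by 2 bases, a second TGTTTTG spans -32 to -26, and the cAMP response core TGACG, on the opposite strand at -118 to -114, overlaps the E-box. Both motifs together occurred in 0.408% of windows, a pair looked up after the sequences were seen. In Ppp1r3c the E-box spans -104 to -99 and no other motif matched.

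TGACG was found in Irs1, Trib3, Akt2, Foxo3 and Ppp1r3g and in 20.8% of windows. The ATF4 element TGATGNAA was found in Trib3, on the opposite strand at 14 to 21 bases after the start, in 1 of the 4 windows of Akt2, and in 3.97% of windows. The FOXO motif TGTTTAC, present in 3.65% of windows, was in none of the members' windows. The matches describe letters in a window, and binding was not measured in the data used here.

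In FPKM, 8 of the 10 genes were lower in every laboratory mouse than in every wild mouse, all but Ppp1r3b and Ppp1r3g. The same held for 43.7% of all genes tested, so the pattern is common on this scale. In zFPKM the mean of all 10 genes was lower in laboratory mice, a direction that turned for 5 of them with sex as a covariate. All laboratory mice are male and only wild mouse 1 is a wild male. In every fit with sex as a covariate the group difference is therefore the laboratory mean less wild mouse 1. Such a fit rests on that mouse and is not a comparison of the 2 groups at equal sex. In zFPKM the groups did not overlap for Akt2 and Ppp1r3c, beside 14.1% of all genes tested. In centred log2 the groups did not overlap for 6 genes (Insr, Irs1, Irs2, Akt2, Foxo1 and Ppp1r3c), all lower in laboratory mice, beside 23.7% of genes. The median difference over the 10 genes was -0.26 in zFPKM and -0.67 in centred log2, where the median over all genes tested was 0.00 and 0.27.

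**Figure D1:**
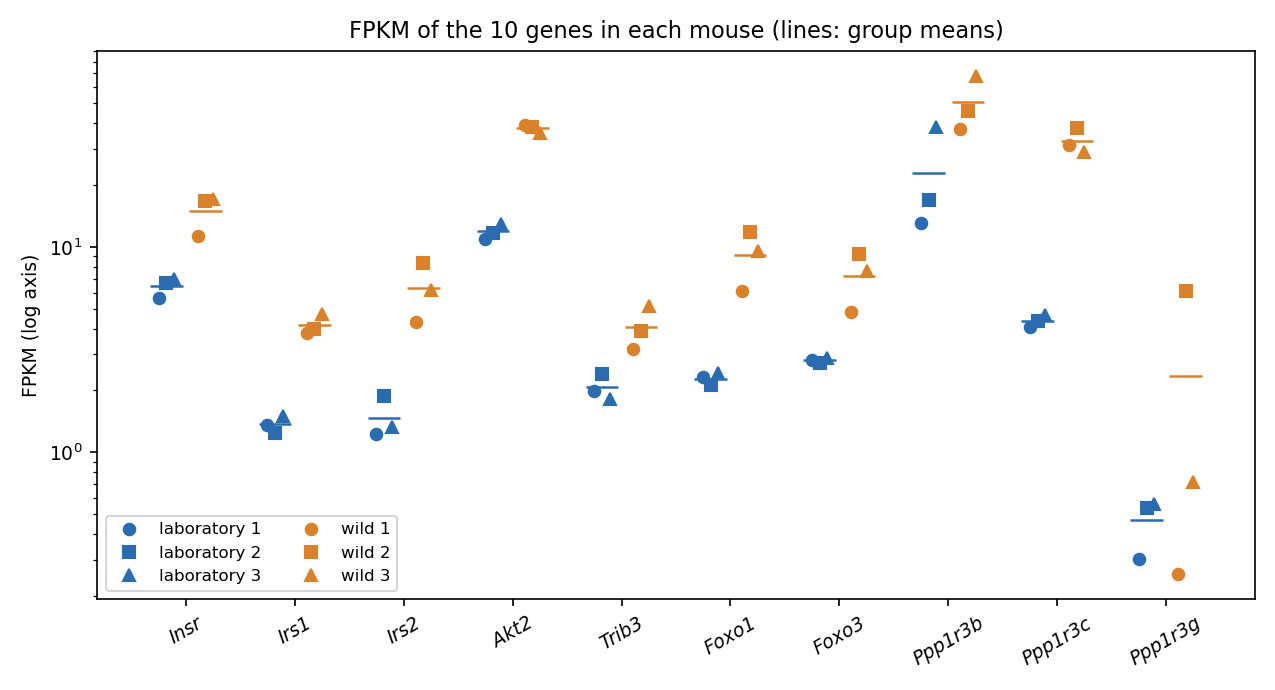
FPKM (log axis) of the 10 genes in each of 3 laboratory mice (blue) and 3 wild mice (orange), with symbols for the mice and lines for the group means. Blue and orange points are apart for all genes but Ppp1r3b, where laboratory mouse 3 reached 38.5, and Ppp1r3g, where wild mouse 2 reached 6.09.

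By FPKM, Ppp1r3b was first among the 10 genes in every mouse but wild mouse 1, where Akt2 was first, and Ppp1r3g was last in every mouse but wild mouse 2, where Trib3 was last. Ppp1r3c came at place 4 in all laboratory mice, just after Insr, and at place 3 in all wild mice, just before it. Not all neighbours in this order were apart. For example, in laboratory mice the ranges of Irs1 and Irs2 overlapped, as did those of Foxo1 and Trib3. In wild mice those of Ppp1r3b, Akt2 and Ppp1r3c overlapped, as did those of Foxo1 and Foxo3.

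Insr, the insulin receptor, stood at an FPKM of 5.64, 6.64 and 7.01 in laboratory males 1 to 3 against 11.3, 16.7 and 17.0 in wild mice 1 to 3. All wild mice were above all laboratory mice, and the wild male was the lowest of the 3. The mean was 6.43 ± 0.710 (SD, n = 3) against 15.02 ± 3.23 (SD, n = 3), 2.34-fold higher in wild mice. In zFPKM the difference was -0.17 (SE 0.19, 95% interval -0.53 to 0.20, limma adjusted p = 0.639), with overlapping groups. In centred log2 it was -0.45 (95% interval -0.88 to -0.03, limma adjusted p = 0.0748), without overlap. Insr did not pass the test on either scale.

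Irs1, the adaptor that the receptor phosphorylates, stood at an FPKM of 1.36, 1.24 and 1.51 in the laboratory males against 3.80, 3.97 and 4.72 in wild mice. The mice of a group lay close together, and the groups were apart by 3.03-fold in their means. Irs2, the other main adaptor in hepatocytes, stood at an FPKM of 1.23, 1.87 and 1.33 in the laboratory males against 4.30, 8.39 and 6.17 in wild mice. Its groups were apart by 4.26-fold, and wild mouse 2 was the highest. In zFPKM neither difference passed the test, with -0.31 for Irs1 (SE 0.26, limma adjusted p = 0.501) and -0.47 for Irs2 (SE 0.25, adjusted p = 0.215). In centred log2 both passed, with -0.79 for Irs1 (adjusted p = 0.0197) and -1.25 for Irs2 (adjusted p = 0.00990). With sex as a covariate on that scale they did not pass, with differences of -0.81 (adjusted p = 0.0855) and -0.91 (adjusted p = 0.105).

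Akt2, the kinase that carries the signal on, stood at an FPKM of 10.99, 11.8 and 12.9 in the laboratory males against 39.4, 38.4 and 36.0 in wild mice. The spread within a group was narrow, the wild male was here the highest, and the groups were apart by 3.19-fold, from 11.9 ± 0.984 to 37.9 ± 1.75 (SD, n = 3 each). Among all genes tested, Akt2 ranked at percentile 86.0 to 86.7 in the laboratory males against 90.5 to 91.2 in wild mice. In zFPKM the difference was -0.33 (SE 0.16, 95% interval -0.64 to -0.02), which did not pass the test (limma adjusted p = 0.158). In centred log2 it was -0.92 (adjusted p = 0.00524), and with sex as a covariate -1.13 (adjusted p = 0.0157).

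Trib3, the pseudokinase that binds AKT, stood at an FPKM of 1.99, 2.39 and 1.82 in the laboratory males against 3.19, 3.88 and 5.13 in wild mice. Its means were 1.97-fold apart in FPKM. On the scales that set the mice level its groups overlapped, with differences of -0.10 in zFPKM (SE 0.25, limma adjusted p = 0.864) and -0.18 in centred log2 (95% interval -0.75 to 0.39, adjusted p = 0.559).

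Foxo1, the FOXO factor best known for control of hepatic glucose output, stood at an FPKM of 2.31, 2.12 and 2.43 in the laboratory males against 6.10, 11.8 and 9.52 in wild mice. The laboratory mice were tightly grouped, and the wild male lay below both wild females. The means were 4.003-fold apart. Foxo3, a related factor with partly shared targets, stood at an FPKM of 2.82, 2.71 and 2.87 in the laboratory males against 4.81, 9.25 and 7.63 in wild mice, 2.58-fold apart in the means and with the same order of the wild mice. In zFPKM neither passed, with -0.43 for Foxo1 (SE 0.22, limma adjusted p = 0.209) and -0.21 for Foxo3 (SE 0.22, adjusted p = 0.622). In centred log2 Foxo1 passed with -1.16 (adjusted p = 0.00813), which it did not with sex as a covariate (-0.79, adjusted p = 0.0966), and Foxo3 did not pass with -0.55 (adjusted p = 0.109).

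Ppp1r3c, which encodes PTG, had the largest zFPKM difference of the 10 genes. Its FPKM was 4.08, 4.35 and 4.68 in the laboratory males against 31.5, 38.0 and 29.0 in wild mice. The lowest wild mouse was thus far above the highest laboratory mouse, with means of 4.37 ± 0.299 and 32.8 ± 4.61 (SD, n = 3 each), 7.51-fold apart. Ppp1r3c ranked at percentile 72.9 to 74.9 of all genes tested in the laboratory males against 88.9 to 91.0 in wild mice. The zFPKM was 0.49, 0.44 and 0.04 in the laboratory males against 0.92, 1.26 and 1.07 in wild mice, a difference of -0.76 (SE 0.18, 95% interval -1.11 to -0.41, limma adjusted p = 4.34e-04). Ppp1r3c was the only 1 of the 10 genes to pass this test, in which 7.28% of all genes tested were lower in laboratory mice.

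In centred log2 the difference of Ppp1r3c was -2.13 (limma adjusted p = 3.36e-04), and with sex as a covariate -2.23 (adjusted p = 0.00294). With any single mouse left out, the zFPKM difference lay between -0.84 and -0.62, with adjusted p between 0.00178 and 0.0342. The call in zFPKM was lost without the filter on low values (adjusted p = 0.435), without the mean-variance trend (adjusted p = 0.0975) and with sex as a covariate (difference -0.59, adjusted p = 0.124). Over all alternatives its adjusted p ranged from 5.0e-05 to 0.435.

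Ppp1r3b, which encodes the main targeting subunit of liver, stood at an FPKM of 13.1, 17.0 and 38.5 in the laboratory males against 37.4, 46.1 and 68.3 in wild mice. Laboratory mouse 3 stood well above the other two and above wild mouse 1, so the groups overlapped. The means of 22.9 ± 13.7 and 50.6 ± 15.9 (SD, n = 3 each) were 2.21-fold apart. Neither zFPKM (-0.16, SE 0.15, limma adjusted p = 0.538) nor centred log2 (-0.51, adjusted p = 0.199) passed the test.

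Ppp1r3g was low in 5 of the 6 mice. Its FPKM was 0.303, 0.537 and 0.557 in the laboratory males against 0.255, 6.09 and 0.714 in wild mice. Wild mouse 2 stood apart, with Cufflinks bounds of 5.42 to 6.76 around its value, while wild mouse 1, with bounds of 0.0995 to 0.410, was the lowest of all. Both came from the same trapping site and differ in sex. The zFPKM difference of -0.14 (SE 0.37, 95% interval -0.86 to 0.58, limma adjusted p = 0.866) turned to 0.41 without wild mouse 2 (that value did not pass either), so no direction between the groups is given.

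The 3 targeting subunits summed to an FPKM of 17.5 to 43.8 in the laboratory males against 69.2 to 98.1 in wild mice. Ppp1r3c made up 23.3, 19.9 and 10.7% of this sum in laboratory males 1 to 3 against 45.5, 42.1 and 29.6% in wild mice 1 to 3. Its share was thus larger in every wild mouse than in every laboratory mouse. Ppp1r3b made up 75.0, 77.6 and 88.0% in the laboratory males against 54.1, 51.1 and 69.7% in wild mice, where it remained above Ppp1r3c in each mouse. Ppp1r3g reached 6.75% in wild mouse 2 and at most 2.46% elsewhere. FPKM is scaled by transcript length, so these shares compare levels between genes per length.

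**Figure D2:**
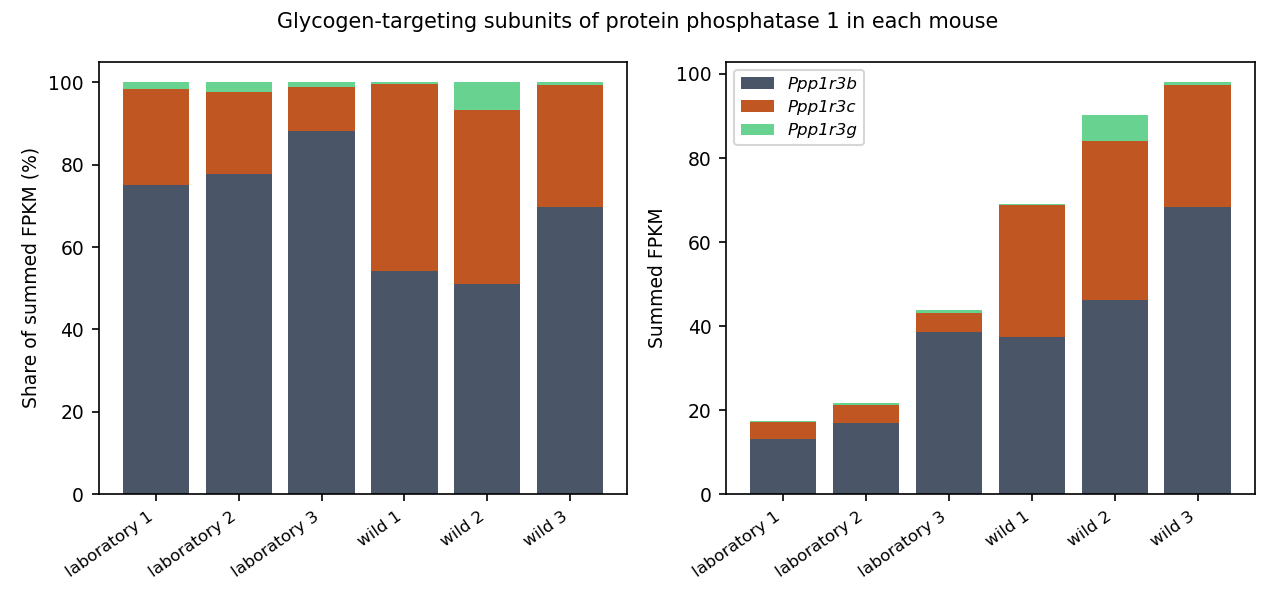
Share of summed FPKM in percent (left) and summed FPKM (right) of Ppp1r3b, Ppp1r3c and Ppp1r3g in each mouse, as stacked bars. Ppp1r3c takes 10.7 to 23.3% of the sum in the laboratory males against 29.6 to 45.5% in wild mice.

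In zFPKM 1 of the 10 genes was thus called, and in centred log2 5 were (Irs1, Irs2, Akt2, Foxo1 and Ppp1r3c), all lower in laboratory mice. On the centred scale 18.6% of all genes tested were called lower and 28.7% higher in laboratory mice. With sex as a covariate on that scale, the difference from wild mouse 1 alone was -1.13 for Akt2 and -2.23 for Ppp1r3c. In a two-sided exact permutation test of log2 FPKM, 3 mice against 3, p was 0.1 for the 8 genes whose groups did not overlap, the smallest p this design allows, 0.2 for Ppp1r3b and 0.5 for Ppp1r3g.

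**Figure D3:**
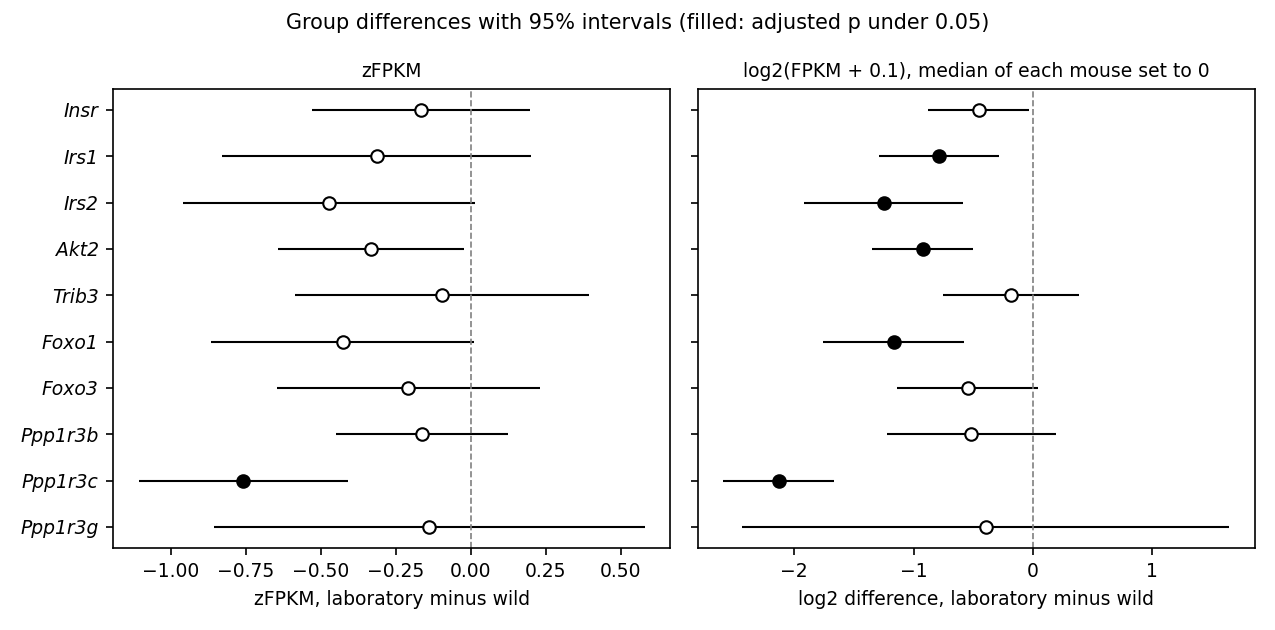
Difference between the group means, laboratory minus wild, with 95% intervals from limma, in zFPKM (left) and in centred log2(FPKM + 0.1) (right) for the 10 genes. Filled points have an adjusted p under 0.05: Ppp1r3c at -0.76 on the left, and on the right 5 genes of which Ppp1r3c, at -2.13, lies farthest from 0.

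A ratio of 2 genes within a mouse does not depend on a factor common to all FPKM values of that mouse. It does not remove differences between mice in the SD of log2 FPKM. By two-sided exact permutation tests 5 ratios were compared, with p adjusted over the 5. Foxo1 to Foxo3 was 0.820, 0.783 and 0.844 in the laboratory males against 1.27, 1.28 and 1.25 in wild mice. Foxo3 was thus the higher of the pair in each laboratory mouse and Foxo1 in each wild mouse, and the spread within a group was far smaller than the 1.55-fold gap between them (exact permutation p = 0.1, adjusted p = 0.167). The ratio of Akt2 to Akt1, the isoform with wider roles in growth, was 0.761, 1.16 and 1.27 in the laboratory males against 2.36, 2.12 and 1.99 in wild mice, 2.07-fold apart without overlap (exact permutation p = 0.1, adjusted p = 0.167). The ratio of Ppp1r3c to Ppp1r3b was 0.311, 0.257 and 0.121 in the laboratory males against 0.842, 0.823 and 0.425 in wild mice, 3.12-fold apart without overlap (exact permutation p = 0.1, adjusted p = 0.167). These are the smallest p the design allows.

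Irs2 to Irs1 was 0.901, 1.503 and 0.879 in the laboratory males against 1.13, 2.11 and 1.31 in wild mice, so that the groups overlapped (exact permutation p = 0.3, adjusted p = 0.375). Ppp1r3g to Ppp1r3b ran from 0.0145 to 0.0317 in the laboratory males and from 0.00681 to 0.132 in wild mice and overlapped as well (exact permutation p = 1).

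**Figure D4:**
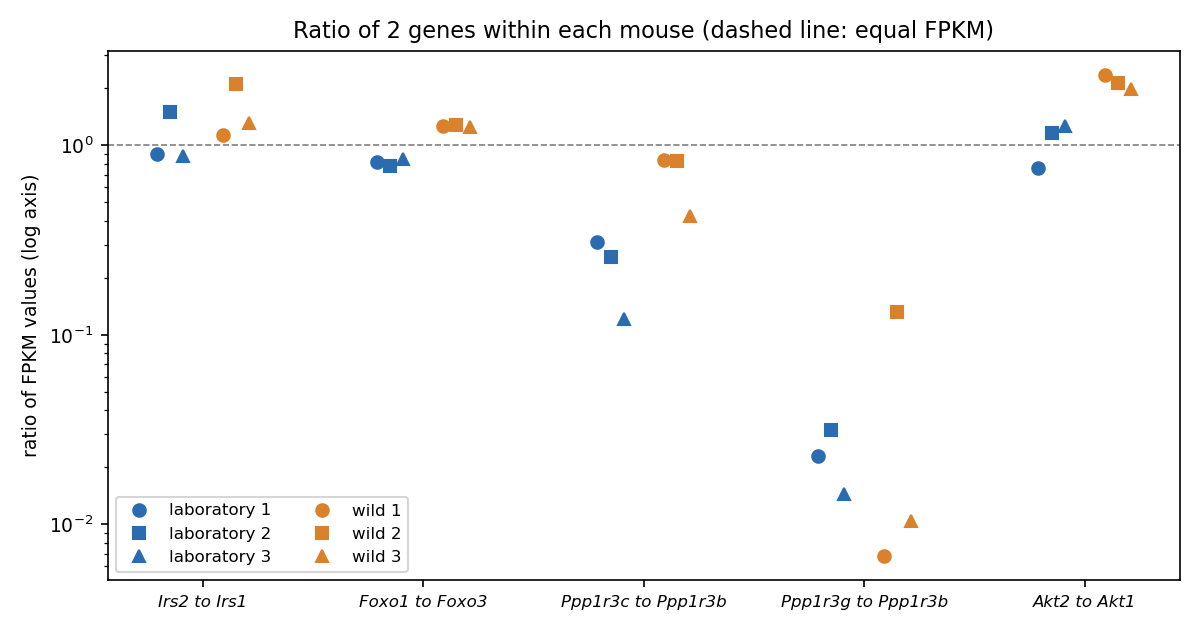
Ratio of FPKM values of 2 genes within each mouse (log axis), for 3 laboratory mice (blue) and 3 wild mice (orange), with equal FPKM as a dashed line. Foxo1 to Foxo3 lies below 1 in every laboratory mouse and above 1 in every wild mouse, and Ppp1r3g to Ppp1r3b overlaps between the groups.

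Sex differed in part along with origin. The wild male was below both wild females for 8 of the 10 genes, all but Akt2 and Ppp1r3c, beside 42.5% of all genes tested. In FPKM the wild male was above all 3 laboratory males for 8 of the 10 genes, beside 51.7% of all genes tested. These are the 8 genes whose groups did not overlap, for which this holds by definition, so it says nothing further about sex. Wild mouse 1 also had the highest mode of log2 FPKM, and the part of sex in these values was not tested. With sex as a covariate in zFPKM, none of the 10 genes was called by limma, beside 7.38% of all genes tested, and 1 had an unadjusted p under 0.05, beside 23.2%. The difference, here the laboratory mean less wild mouse 1, turned positive for Insr, Trib3, Foxo3, Ppp1r3b and Ppp1r3g.

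Other genes of the pathway were followed in 8 lists, in the zFPKM test unless stated. In it 14.4% of all genes tested were called, 7.17% higher and 7.28% lower in laboratory mice. None of 12 further receptor and adaptor genes was called (median difference -0.01), and in centred log2 2 were higher and 1 lower in laboratory mice. The most expressed of them was Ceacam1, which promotes insulin clearance, with an FPKM of 27.0 to 33.0 in the laboratory males against 56.4 to 64.6 in wild mice (zFPKM difference -0.10, limma adjusted p = 0.720). None of 16 genes of the PI3K, AKT and mTOR relay was called, and in centred log2 3 were higher and 3 lower. The most expressed was Eif4ebp1, the translation repressor that mTOR phosphorylates, with an FPKM of 27.0 to 34.5 in the laboratory males against 24.5 to 36.5 in wild mice (zFPKM difference 0.25, adjusted p = 0.287). In centred log2 it was called higher in laboratory mice (0.77, adjusted p = 0.0468). Pik3r2 and Mtor had no value.

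Among 12 brakes on insulin signalling, 1 was called, lower in laboratory mice. It was Ptprf, the receptor phosphatase LAR, which acts on the insulin receptor, with an FPKM of 2.73, 3.50 and 4.73 in the laboratory males against 27.8, 30.2 and 32.9 in wild mice (zFPKM difference -0.82, limma adjusted p = 2.0e-04). Its groups were as clearly apart as those of Ppp1r3c. In centred log2, 5 of the 12 were lower and 1 higher in laboratory mice.

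Of 10 further FOXO factors and genes that insulin represses, 2 were lower in laboratory mice and none was higher, and in centred log2 4 were lower and none higher. Sesn3, a sestrin that is a known FOXO target, stood at an FPKM of 0.217, 0.193 and 0.183 in the laboratory males against 2.47, 4.94 and 3.66 in wild mice (zFPKM difference -1.21, limma adjusted p = 0.00637). Igfbp1, an insulin-repressed binding protein of insulin-like growth factors, stood at an FPKM of 5.44, 20.9 and 14.3 in the laboratory males against 74.1, 172 and 29.0 in wild mice (-0.64, adjusted p = 4.18e-04). For Igfbp1 the zFPKM of the groups overlapped, and in centred log2 it did not pass (adjusted p = 0.0502).

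Of 9 genes that insulin induces, 1 was higher and 1 was lower in laboratory mice. Thrsp, a lipogenic protein, differed by 0.37 (limma adjusted p = 0.0126) with overlapping groups, of 90.3 to 375 FPKM in the laboratory males against 122 to 242 in wild mice. Acly, ATP citrate lyase, was the lower 1, with an FPKM of 8.02, 14.2 and 43.3 in the laboratory males against 99.96, 118 and 120 in wild mice (-0.66, adjusted p = 5.91e-05). In centred log2, Thrsp was not called (adjusted p = 0.0777) and Acly was the only 1 of the 9 that was.

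Of 17 genes of glycogen synthesis and breakdown with a value, 2 were lower and none was higher in laboratory mice. Gbe1, the glycogen branching enzyme, stood at an FPKM of 2.48, 3.49 and 4.03 in the laboratory males against 43.0, 47.7 and 61.7 in wild mice, 15.2-fold apart (zFPKM difference -1.12, limma adjusted p = 1.39e-08). Pygl, liver glycogen phosphorylase, stood at an FPKM of 45.8, 68.9 and 75.0 in the laboratory males against 165, 238 and 281 in wild mice (-0.37, adjusted p = 0.0170). In centred log2, 6 of the 17 were lower and 1 was higher in laboratory mice. Gys2, liver glycogen synthase, was the higher 1 and is named after its values were seen, with an FPKM of 23.3, 23.3 and 29.3 in the laboratory males against 24.5, 24.7 and 34.3 in wild mice (centred adjusted p = 0.0215). It did not pass in zFPKM (0.21, adjusted p = 0.415).

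None of 6 tested genes of protein phosphatase 1 and its other glycogen subunits was called in zFPKM, and in centred log2 2 were higher and 1 lower in laboratory mice. The 2 higher, Ppp1r3d and Ppp1r3f, stood near 0 with overlapping FPKM. Ppp1r3d was at 0 to 0.0834 in the laboratory males against 0.0270 to 0.0789 in wild mice. Ppp1r3f was at 0.0143 to 0.155 against 0.0125 to 0.109. The lower 1, named after its values were seen, was Ppp1cb, a catalytic subunit (-0.93, adjusted p = 0.00731). The most expressed, Ppp1cc, a catalytic subunit, stood at an FPKM of 15.8 to 18.3 in the laboratory males against 25.5 to 35.1 in wild mice (zFPKM difference -0.07, limma adjusted p = 0.848). Ppp1r1a was listed at 0 in all mice and Ppp1ca had no value. Of 12 targets of ATF4, the factor that induces Trib3, 1 was higher and 1 lower in laboratory mice, and in centred log2 3 were higher and 2 lower. Asns, asparagine synthetase, stood at an FPKM of 0.684, 0.904 and 2.58 in the laboratory males against 0.168, 0.137 and 0.0698 in wild mice (1.41, adjusted p = 0.00712). Vldlr, a lipoprotein receptor, stood at an FPKM of 0.0732, 0.0244 and 0.128 in the laboratory males against 4.64, 4.12 and 6.20 in wild mice (-1.95, adjusted p = 1.21e-05). The targets thus moved in both directions, and the median over the list was 0.12. Each of the 9 called genes of these lists lost its call in at least 1 alternative, as did Ppp1r3c.

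**Figure D5:**
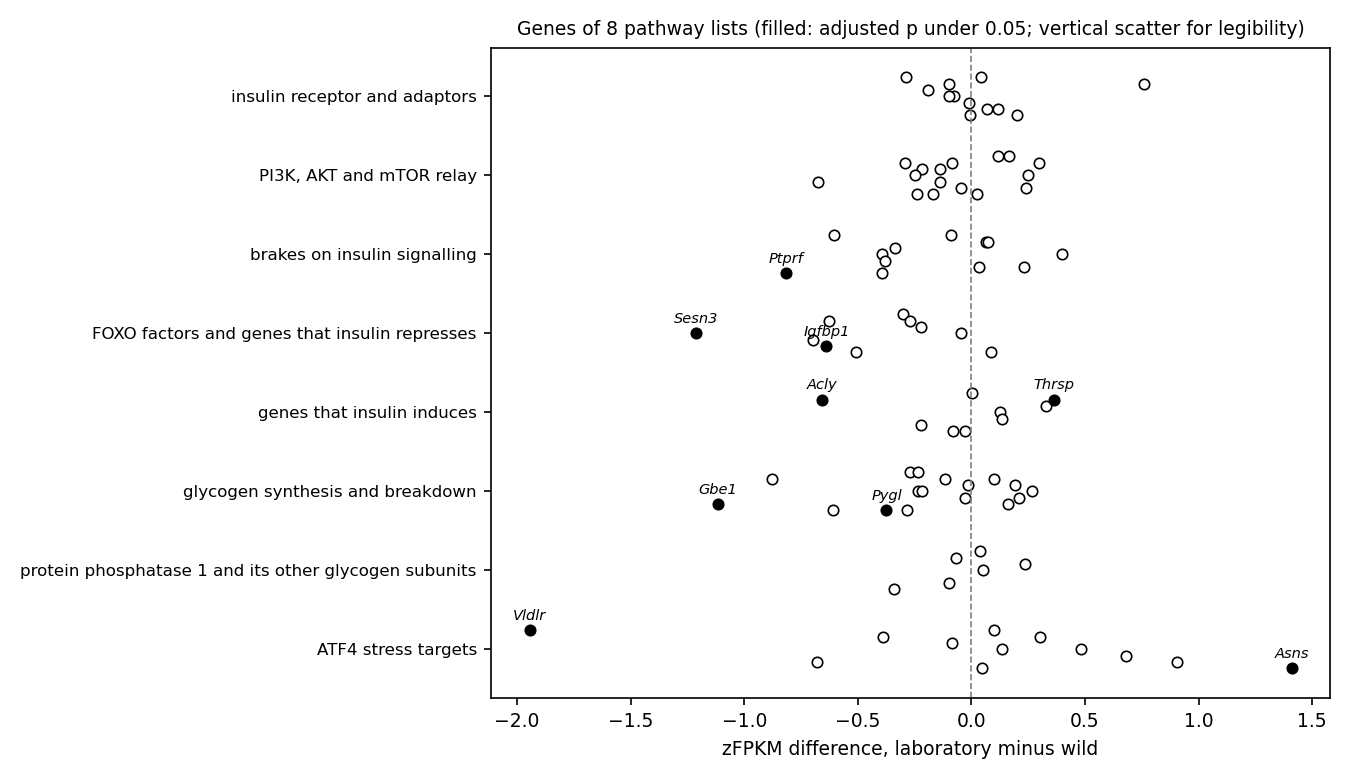
zFPKM difference, laboratory minus wild, of each tested gene of 8 pathway lists (rows), with filled and named points for an adjusted p under 0.05 by limma. Called genes are few in each list, with Gbe1 at -1.12 among glycogen genes and Vldlr at -1.95 and Asns at 1.41 among ATF4 targets.

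Markers of liver cells were read in the same mice. Of 10 hepatocyte markers 7 had a value, and their summed FPKM was 30128 to 41917 in the laboratory males against 19367 to 21683 in wild mice, led by Apoa1 and far above the sum of any other marker list. In the zFPKM test 3 of the 7 were higher and 2 lower in laboratory mice, and in centred log2 1 was higher and 2 lower. Of 8 markers each, none was called for Kupffer cells (summed FPKM 52.7 to 80.0 and 24.2 to 191, led by C1qa) or sinusoidal endothelial cells (29.2 to 46.7 and 23.5 to 76.5, led by Clec4g). In centred log2 none of the former and 2 of the latter were called, both higher in laboratory mice. For stellate cells 2 of 8 were higher in laboratory mice, although the summed FPKM was 48.7 to 69.4 there and 90.7 to 175 in wild mice, led by Dcn, and in centred log2 3 were higher and 3 lower. For biliary cells 1 of 8 was higher in laboratory mice (35.7 to 72.2 and 18.5 to 33.0), the leading Spp1, but in centred log2 7 of the 8 were, with a median difference of 1.42. On that scale 28.7% of all genes tested were called higher, and the median over all genes tested was 0.27.

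Skeletal muscle markers summed to at most 1.59, led by Mylpf, with Pvalb listed at 0 in all mice. Adipocyte markers summed to 3.53 to 10.1 in the laboratory males against 0.194 to 0.455 in wild mice, led by Adrb3, with Plin1, Lep, Retn and Slc7a10 listed at 0. Pancreas markers summed to 4.50 to 8.92 and 2.50 to 17.2, led by Cela1, with Ins1, Ins2, Gcg, Sst and Prss2 listed at 0. Apart from Adrb3, Cela1 and Mylpf, the last of which lay between 0.655 and 1.34, no marker of these 3 kinds of cell was above an FPKM of 0.794 in any mouse. Higher in laboratory mice were 1 of 2 tested muscle markers and 1 of 4 tested adipocyte markers in zFPKM, beside 7.17% of all genes tested. In centred log2 2 of 2 and 4 of 4 were, beside 28.7%. Mylpf was called there although its FPKM overlapped, with 0.855 to 1.17 in the laboratory males against 0.655 to 1.34 in wild mice. The part of the stellate, biliary, muscle and adipocyte markers in the differences of the 10 genes was not tested.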

How the data were processed

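RNA-Seq of liver from 3 laboratory and 3 wild mice was used, with groups from the sample labels. The authors sequenced stranded mRNA libraries, mapped them with kalign on a masked GRCm38.p6 genome, and deposited FPKM from the Tuxedo pipeline together with Cufflinks' bounds for 5 mice. The authors also deposited zFPKM, a score made with the R package zFPKM. No counts were used, so the edgeR test in the study's methods was not repeated and the unit chose the test. The submitters' processing notes also name Picard. The depth is unknown, and precision rests on the 3 mice per group.

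Names listed once in every mouse (47256) were kept, less 24 with a failed or excessive estimate in any of 5 mice; laboratory mouse 1 carries no such marks. The test covered the 18619 names whose zFPKM exceeded -3 in 3 or more mice, raised lower values to that floor, and was made by limma 3.58.1 in R 4.3.3 (lmFit, eBayes with trend, Benjamini-Hochberg, adjusted p under 0.05). The fit was tested on simulated data with independent noise and no differences in scale between mice. That test therefore cannot speak to calls that depend on the scaling. Exact permutation tests and motif searches were run with scipy 1.17.1, pandas 2.3.3 and numpy 2.4.6 under Python 3.11.15. RefSeq promoter windows came from GRCm38.p6.

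The 10 genes, the lists and the motifs were chosen with earlier results of these data known. From each pathway list the text names the 2 largest rises and 2 largest falls among called genes, or the gene with the highest mean zFPKM where none was called; from each marker list, the gene with the highest mean FPKM and those listed at 0. Alternatives were other floors, filters and scalings, log2(FPKM + 1) and log2(FPKM + 0.1), no trend, sex as a covariate and each mouse left out; 2 centred fits were added after the data were seen. Among the 8245 to 10240 genes above an FPKM of 1 in both mice of a pair, none had exactly the same FPKM in any pair. The libraries were sequenced as a pool. Chromatin assays were not analysed here, and 1 gene of the insulin-induced list is not reported here.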

Additional observations from a re-analysis of the deposited data

How the results depend on the processing

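Ppp1r3c was lower in laboratory mice under all 17 alternatives, and its call was lost under 3. Genes called in all (2690) came to 23 without the filter on low values, 7282 with quantile normalization, 5270 with a median of 0 in each mouse, 8242 in log2(FPKM + 1), 8589 in log2(FPKM + 0.1), 795 without the trend, 1374 with sex as a covariate, 8817 in centred log2, 5279 in centred log2 with sex, and 1420 to 2556 with 1 mouse left out. Called members came to 0, 5, 3, 8, 9, 0, 0, 5 and 2 in the same order, and to 1 with any mouse left out. In log2(FPKM + 0.1), without centring, 37.9% of all genes tested were called lower. The share of calls higher in laboratory mice was 49.6% in zFPKM, 16.8% in log2(FPKM + 1), 17.7% in log2(FPKM + 0.1), 81.9% with sex as a covariate, 60.7% in centred log2, 65.2% without the filter, and 37.6 to 64.3% with 1 mouse left out. At an unadjusted p under 0.05, limma found 2 members without the filter, beside 3220 of the 47232 gene names used. Without the trend it found 1 member, beside 3951 of the 18619 genes tested.

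Differences that changed sign, none of them called, were those of Insr (0.15), Trib3 (0.25), Foxo3 (0.19), Ppp1r3b (0.11) and Ppp1r3g (0.85) with sex as a covariate, of Ppp1r3g (1.23) in centred log2 with sex, of Trib3 (-0.27 to 0.12 with 1 mouse left out) and Ppp1r3g (-0.63 to 0.41), positive at 0.12 and 0.04 without laboratory mouse 3, the latter also at 0.41 without wild mouse 2. The cause was not tested. The log2 ratio of Ppp1r3g to Ppp1r3b, 0.06 as laboratory minus wild, lay between -0.76 and 1.38 with 1 mouse left out and was negative (-0.21, -0.76 and -0.45) without laboratory mouse 2, wild mouse 1 or wild mouse 3; the other 4 ratios kept their direction. No paired analysis was possible because the labels carry no replicate numbers and the mice of the groups share no animal. The missing counts limit what can be said of low genes such as Ppp1r3g.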
